A study of Arabidopsis thaliana with 8 samples.

Results

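The nuclei described here were 208 of the 744 nuclei of the experiment, sorted from globular embryos of Arabidopsis, and they were divided on each of 8 plates by their level of precursor ribosomal RNA (pre-rRNA). A nucleus was taken when it had at least 100000 counts and 1000 detected features, no count of 3 genes (CLSY1, DML3 and WOX5), and a count of fewer than 2 of 4 seed coat genes. Of the 534 nuclei that passed the limits on counts and features, 299 were left out by the 3 genes and 27 by the seed coat genes. The 2 sides were chosen by a measured value, the count of AT3G06355, a pre-rRNA feature, as a share of the counts of all nuclear genes in the same nucleus. The 102 nuclei above the median of their plate are called high pre-rRNA nuclei and the 106 at or below it low pre-rRNA nuclei. All nuclei came from 1 condition. The plants were Col-0, labelled wild type, and carried the transgenes pWOX2::H2B-GFP and pWOX2::tdTomato-RCI2b, in which the promoter of the embryonic gene WOX2 drives a nuclear green fluorescent protein, and nuclei were collected after DAPI and GFP gates. The material was developing seeds, pooled before sorting, so no nucleus can be traced to an embryo. Nothing in the labels says that the plates came from separate plants, so p-values over plates measure the spread between plates, which may be technical.

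Ribosomal RNA is made in the nucleolus, where RNA polymerase I copies tandem rDNA repeats into a long precursor. The precursor holds the 18S, 5.8S and 25S rRNAs, parted by internal transcribed spacers (ITS1 and ITS2) that are cut out and degraded, with snoRNAs and many proteins taking part. The amount of spacer RNA in a nucleus therefore reflects both the rate at which the precursor is made and the rate at which it is processed. The value used here was a share of counts and not an amount. Oligo-dT adapters were trimmed from the reads, and how much of the precursor such libraries captured was not measured. In growing plant cells, ribosome production is coupled to growth and to the cell cycle, and the nucleolus is taken apart and rebuilt at mitosis.

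AT3G06355 is a feature of 502 bases on the plus strand of chromosome 3 (TAIR10.1, chr3:14199575-14200076), annotated as a non-coding RNA, within the rDNA repeat at that place. It begins 90 bases after the end of the 18S rRNA gene AT3G41768. It holds 178 bases that lie before 5.8S rRNA, the 164 bases of the 5.8S rRNA gene AT3G41979, and 160 bases that lie after it. The central part is shown here because it is what the division counted. The bases of 5.8S rRNA are in capitals, between 60 bases of ITS1 and 60 of ITS2 in lower case (chr3:14199693-14199976, plus strand).
AT3G06355 central part: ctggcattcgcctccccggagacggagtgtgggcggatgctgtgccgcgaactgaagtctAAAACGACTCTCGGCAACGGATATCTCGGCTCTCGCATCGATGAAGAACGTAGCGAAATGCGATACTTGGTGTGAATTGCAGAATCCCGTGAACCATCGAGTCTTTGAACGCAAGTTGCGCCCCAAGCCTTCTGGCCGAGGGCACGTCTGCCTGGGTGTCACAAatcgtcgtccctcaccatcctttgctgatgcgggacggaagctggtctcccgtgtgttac
Both annotated 5.8S features were listed at 0 in every one of the 208 nuclei. Counts of mature 5.8S rRNA and of its precursor thus cannot be told apart in this value, and the rDNA repeats are near-identical copies, so that a count names the repeat unit rather than 1 locus.

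The pre-rRNA share differed widely between nuclei and between plates. Over the 8 plates, AT3G06355 took 20.8% ± 9.14 (SD, n = 8 plates) of the nuclear gene counts summed over high nuclei and 6.49% ± 5.06 over low nuclei, a ratio of means of 3.20. These values made the 2 groups and were therefore not tested. Plate medians lay at 11.5%, 22.7%, 0.728%, 4.33%, 16.6%, 2.55%, 17.3% and 19.1% for plates 1 to 8. Plates 3, 4 and 6 had the lowest medians, and high nuclei of plate 3, with 5.78% when summed, lay below the low nuclei of plates 2, 5, 7 and 8, which had 14.1%, 9.28%, 8.33% and 11.2%. High and low are thus ranks within a plate and not levels. Single nuclei ranged from 0.00970% on plate 6 to 46.5% on plate 7. The lowest high nucleus and the highest low nucleus had 11.8% and 11.1% on plate 1, 22.9% and 22.4% on plate 2, 0.847% and 0.609% on plate 3, 6.54% and 4.33% on plate 4, 18.3% and 16.6% on plate 5, 3.31% and 1.80% on plate 6, 18.5% and 17.3% on plate 7, and 20.3% and 19.1% on plate 8.

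**Figure D1:**
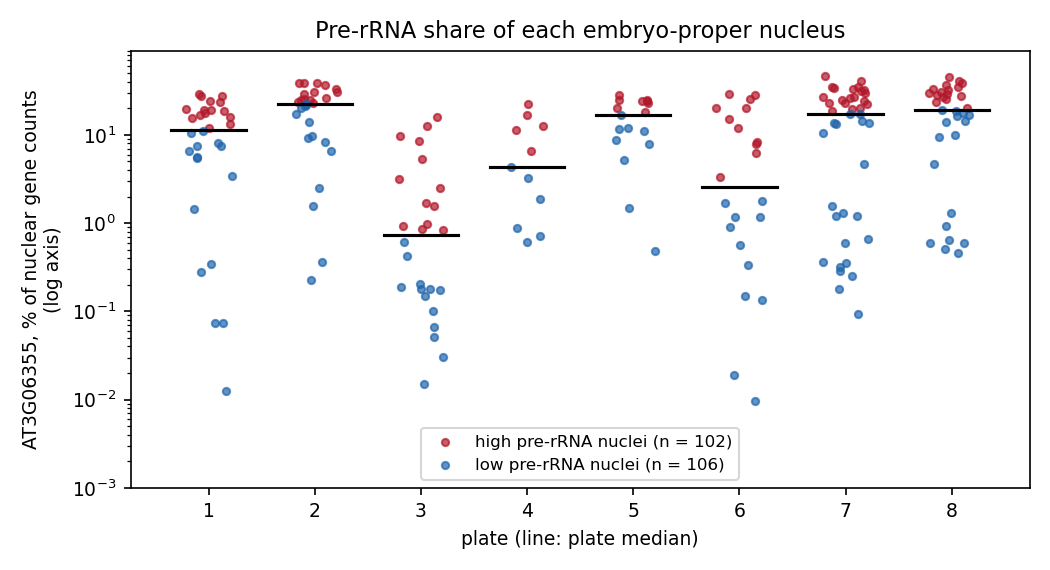
Pre-rRNA share of each of the 208 nuclei (vertical log axis, AT3G06355 as a percent of nuclear gene counts) by plate. Points are nuclei, red for high and blue for low, and the black line is the plate median, which runs from 0.728% on plate 3 to 22.7% on plate 2.

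Other features of the rDNA repeat mostly moved with the division. Of 11 rRNA features, 6 had counts. The 18S rRNA gene AT3G41768, next to the feature used, took 3.82% ± 1.28 (SD, n = 8 plates) of nuclear gene counts in high nuclei and 2.35% ± 1.41 in low nuclei, and was higher in high nuclei on 7 plates. Plate 6 was the exception, with 3.95% in high and 4.93% in low nuclei. The ratio of means of this 18S gene was 1.63. The ratio of 3.20 of AT3G06355 was set by the division itself, so the ratios cannot be compared. AT2G01008, a feature beside the rDNA on chromosome 2, had 0.224% ± 0.157 and 0.134% ± 0.0337, higher in high nuclei on 7 plates. The second 18S copy, AT2G01010, went the other way on 7 plates, at 0.00332% ± 0.00192 in high and 0.405% ± 1.06 in low nuclei, and its mean rested on 3.03% in the low nuclei of plate 6. Reads of the 2 near-identical 18S genes cannot be assigned to 1 of them. AT3G41762 and AT3G06325, both within 10 kb of AT3G06355, stayed under 0.1% of counts on every plate (ratios of means 1.14 and 1.45). All these features share a transcript or reads with the one used, so they were not tested, and all were left out of the levels given from here on.

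High nuclei also had deeper libraries. Without rRNA features, the median nucleus had 353213 ± 95315 counts (SD, n = 8 plates) on the high side and 239110 ± 106971 on the low side. The median was higher in high nuclei on 8 of 8 plates, by 1.01 to 2.77 times (exact sign-flip permutation test over plates, two-sided, p = 0.0078, the smallest that 8 plates can give, and 0.031 after Benjamini-Hochberg adjustment over 4 measures). Among the 145 nuclei with at least 200000 counts and 1500 features, divided again, the difference was 18127 counts (adjusted p = 0.80, same exact test). Nuclei thinned to 50000 counts had 1971 ± 485 detected genes on the high side and 1623 ± 344 on the low side, higher on 5 plates (adjusted p = 0.22, same exact test). Mitochondrial transcripts took 5.89% ± 1.99 and 9.54% ± 10.04 of the counts in the median nucleus, the last value resting on 32.9% in the low nuclei of plate 6 (adjusted p = 0.42, same exact test). Chloroplast transcripts took 2.45% ± 0.573 and 2.30% ± 0.393 (adjusted p = 0.61, same exact test). Levels on the 2 sides were thus read from libraries that also differed in depth.

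Marker genes fitted the name embryo proper only in part. Suspensor markers were lower than in the other nuclei, a contrast that the choice of nuclei helped to set. Of the other 326, 299 were left out by CLSY1, DML3 or WOX5 and 27 by the seed coat genes. The paper reports CLSY1 as enriched in the suspensor and DML3 in the basal cell lineage. Differences from the other nuclei are therefore no independent support for the name. Their summed level was 55.7 ± 57.2 CPM (counts per 1000000 counts without rRNA features, SD over 8 plates) in high and 194 ± 180 CPM in low nuclei, against 1555 ± 657 CPM in the other 326 nuclei, and it was lower in high than in low nuclei on 7 of 8 plates. NAC015 was at 0 in all members, and most of the sum was WOX9, at 41.4 ± 36.5 CPM in high and 149 ± 132 CPM in low nuclei and detected in 12.7% and 13.2% of them. Vascular markers were at 2548 ± 906 CPM in high, 1663 ± 638 CPM in low and 854 ± 270 CPM in the other nuclei, and protoderm markers at 3576 ± 1466, 2882 ± 921 and 2713 ± 490 CPM. Seed coat markers were not absent. They summed to 1549 ± 350 CPM in high and 1370 ± 770 CPM in low nuclei, ranging from 1189 to 2224 CPM and from 694 to 2927 CPM, against 2322 ± 840 CPM in the other nuclei, and BAN, an enzyme of seed coat tannins, was found in 59.8% of high and 58.5% of low nuclei. All 10 seed coat markers had counts on both sides. Among the 173 members with no count of the 4 seed coat genes of the rule, edgeR called 6 genes, all among the 9 given further on. Endosperm markers stayed at 26.4 ± 60.4 and 2.27 ± 3.62 CPM. Quiescent center and columella markers, among them the excluded WOX5, were at 957 ± 335 CPM in high, 693 ± 409 in low and 1854 ± 641 in the other nuclei. BBM was found in 45.1% of high and 42.5% of low nuclei, and NTT in 0% and 1.89%. Shoot meristem markers were at 50.4 ± 70.1, 6.63 ± 18.3 and 9.61 ± 20.0 CPM, and ground tissue markers at 120 ± 139, 140 ± 74.7 and 122 ± 47.7 CPM. Of these lists, 8 of 8 protoderm, 12 of 13 vascular, 4 of 10 suspensor, 9 of 10 seed coat and 0 of 8 endosperm markers were high enough to be tested. So were 4 of 9 quiescent center and columella, 2 of 4 shoot meristem and 2 of 3 ground tissue markers. None of those tested passed. Of the 2 shoot meristem markers, 1 had an unadjusted p under 0.05 in edgeR, against 2.26% of all genes.

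Few genes other than rRNA features were called different between high and low nuclei. Counts of the nuclei of each side were summed by plate, which gave 16 sums of 1252674 to 8518848 counts, and compared within plates by edgeR's quasi-likelihood test. Of 16834 genes tested, 9 passed an adjusted p of 0.05 (0.0535% of the genes tested), and all 9 were lower in high nuclei. The count of genes higher in high nuclei was 0 by edgeR, 0 by limma and 494 by DESeq2, and 177 genes were higher (1.05%) and 203 lower (1.21%) at an unadjusted p under 0.05 in edgeR. The median log2 difference of all genes was 0.09. The p-values of the most abundant genes need care. edgeR assumed a spread that falls with abundance and gave no gene a spread of its own, and all 9 genes were abundant, with means of 1463 to 20588 CPM against a median of 25.7 CPM. With a robust estimate of spread 7 genes passed. The exact sign-flip test over plates, which assumes no such trend, called 0 genes after adjustment over all genes, with 605 at an unadjusted p under 0.05. Simulated counts of the same size were drawn from edgeR's own fitted means and spread, so they cannot test that spread for abundant genes. They gave 14 false calls, 0 of them among the 177 genes over 500 CPM. Genes were given log2 changes of 1, 2, 4 or 6, of which 0 of 44, 0 of 45, 0 of 39 and 3 of 47 were found. A gene that did not pass is therefore not shown to be alike on the 2 sides.

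The gene with 1 direction on every plate among the 9 was 3xHMG-box2 (AT4G23800, chr4:12390167-12392710), which encodes a plant protein with 3 HMG boxes, a family known for binding condensed mitotic chromosomes. In high nuclei it was at 403, 1182, 423, 484, 1088, 756, 1546 and 547 CPM on plates 1 to 8. In low nuclei it was at 933, 2532, 1867, 880, 1775, 4927, 2848 and 1211 CPM. The low side was above the high side on 8 of 8 plates, by 0.71 on plate 5 to 2.70 on plate 6 on the log2 scale, although the ranges of the sides overlapped between plates. The fitted log2 difference was -1.33 ± 0.27 (SE, edgeR, adjusted p = 0.0011), and the robust fit gave an adjusted p of 0.0033. The sign-flip test of this gene alone gave an exact p of 0.0078. Every gene with 1 direction on all 8 plates has this p, so it restates the direction and is no further support. It was found in 37.3% of high and 56.6% of low nuclei. The call was lost in several alternatives. Its log2 difference was -0.40 when nuclei were divided separately above and below the median depth of their plate, -0.74 when divided so by detected genes and -0.29 among nuclei with at least 200000 counts and 1500 features, each with an adjusted p of 1.0 (edgeR), and -1.34 with an adjusted p of 0.0059 when every nucleus was thinned to 50000 counts. It was -1.17 among members with no count of the seed coat genes and -0.97 between the nuclei of highest and lowest share without those in the middle (adjusted p = 1.0 for both, edgeR), and -1.13 without plate 6 (adjusted p = 0.15, edgeR). The adjusted p was 0.29 in limma and 0.059 in DESeq2. Its paralog 3xHMG-box1 (AT4G11080), looked at after these values were seen, was at 343 ± 301 CPM in high and 799.6 ± 456 CPM in low nuclei, lower on 6 plates, and did not pass (log2 difference -1.70 ± 0.52, adjusted p = 0.94, edgeR).

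**Figure D2:**
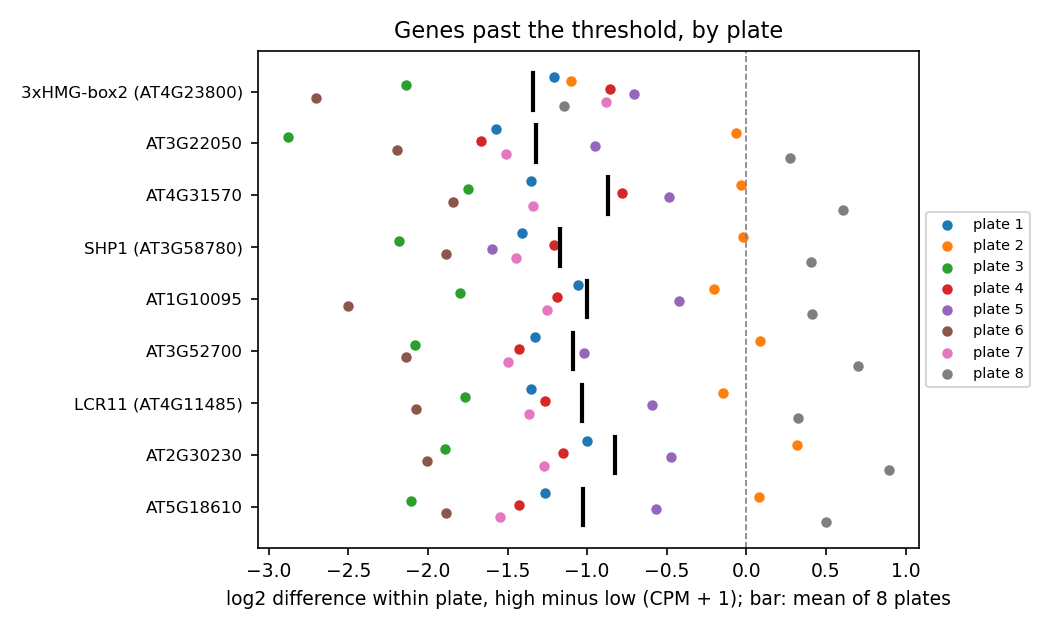
Within-plate log2 difference (horizontal axis, high minus low, CPM + 1) of the 9 genes past the threshold, 1 dot per plate and a bar at the mean of 8 plates. 3xHMG-box2 lies below 0 on every plate, while the other 8 lie near or above 0 on plates 2 and 8.

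The other 8 genes had a feature of sequence in common that the division did not use, a run of 27 to 37 A or T bases in an annotated transcript. Such a run, of at least 25 bases, was present in 24 of the 16834 genes tested (0.143%), where the median gene had a longest run of 7 bases. That share is not the one among abundant genes. Only 97 genes tested had a mean over 700 CPM, and at least 8 of these had such a run, since all 8 called genes are among them. The 8 called genes were AT3G52700, AT2G30230, AT4G31570, AT5G18610, AT1G10095, SHP1 (AT3G58780), AT3G22050 and LCR11 (AT4G11485). As annotated they have no function in common. AT2G30230 is a riboflavin pathway synthase, AT4G31570 a nucleoporin, AT5G18610 a kinase, SHP1 a MADS-box transcription factor, and LCR11 a secreted cysteine-rich peptide. The start of the run is shown for 3 of them, whose runs lie in the 3′ UTR, with 10 bases before it in lower case and its first 20 bases in capitals (TAIR10.1, plus strand: chr2:12897738-12897767, chr4:15306212-15306241 and chr5:6195633-6195662).
AT2G30230: tcttaaattcTTTTTTTTTTTTTTTTTTTT
AT4G31570: ccaacactaaTTTTTTTTTTTTTTTTTTTT
AT5G18610: gtttttggggTTTTTTTTTTTTTTTTTTTT

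These 8 genes were detected in nearly every nucleus and varied more between plates than between sides. AT3G52700, with no known role, had 518 to 52965 CPM in high nuclei (median 4590 over 8 plates) and 1396 to 90077 CPM in low nuclei (median 15315). Its ranges overlapped almost wholly, and its fitted log2 difference was -1.11 ± 0.05 (SE, edgeR, adjusted p = 1.3e-102, but 1.0 in the robust fit). It was lower in high nuclei on 6 plates and higher on plates 2 and 8, by 0.09 and 0.70. SHP1 had 186 to 5320 CPM in high nuclei (median 1045) and 432 to 14527 CPM in low nuclei (median 2036), with a log2 difference of -1.19 ± 0.18 (adjusted p = 7.9e-08, edgeR), and was lower on 7 plates. The log2 differences of all 8 lay between -1.33 and -0.84, and each was lower on 6 or 7 plates. SHP1, known from maternal tissues of the fruit and ovule, was detected in 100% of members on both sides.

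Together the 24 genes with such runs took 4.93% ± 4.66 (SD, n = 8 plates) of counts in high nuclei, 7.96% ± 6.63 in low nuclei and 26.998% ± 15.6 in the 210 wells that failed the limits on counts or features. Low nuclei had the larger share on 6 plates, and on each plate failed wells were above both sides. The shares ranged from 1.24% to 14.0% in high nuclei, from 1.95% to 20.9% in low nuclei and from 9.70% to 46.2% in failed wells. The called genes themselves were detected in 88.6% to 94.8% of failed wells. The part of low input in these 8 calls was not tested. With all genes with such runs left out, edgeR called 2 genes, 3xHMG-box2 lower and AT2G16586 higher.

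**Figure D3:**
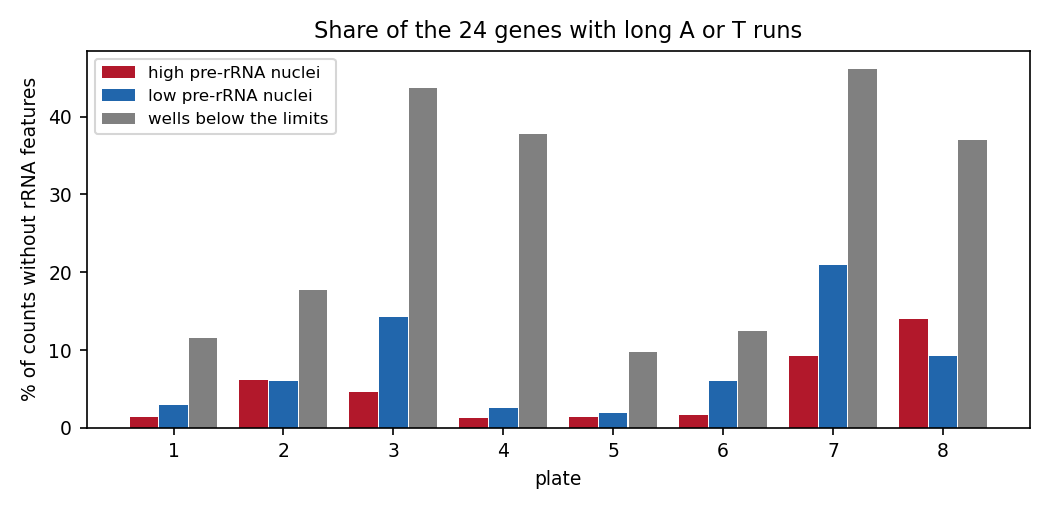
Share of counts (vertical axis, percent of counts without rRNA features) taken by the 24 genes with runs of at least 25 A or T bases, by plate. Bars are sums over high nuclei (red), low nuclei (blue) and failed wells (grey), and the grey bar is the tallest on every plate.

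No gene was higher in high nuclei past the threshold, and the 5 with the smallest p among those at 20 CPM or more and higher on at least 7 plates are given as such, each with an adjusted p of 1.0 in edgeR. All 5 passed in DESeq2, with adjusted p-values from 7.5e-06 for AT2G41050 to 0.024 for PIP1C. That fit used the same counts from which the 5 were picked, so it is not independent. It gave 2517 genes an unadjusted p under 0.05, against 380 in edgeR. PIP1C, an aquaporin of the plasma membrane, was at 310 ± 179 CPM in high and 101 ± 93.6 CPM in low nuclei and higher on 8 plates, though by only 0.02 and 0.03 on plates 1 and 8. FUM1, the mitochondrial fumarase, was at 194.6 ± 179 and 41.8 ± 62.3 CPM, higher on 7 plates. SCPL45, a carboxypeptidase-like protein, was at 133 ± 115 and 14.9 ± 26.9 CPM. AT2G41050, a PQ-loop membrane protein, was at 78.8 ± 57.8 and 3.99 ± 7.52 CPM, and AT3G05510, an acyltransferase-like protein, at 74.9 ± 129 and 14.1 ± 39.8 CPM. These levels came from few nuclei, since AT3G05510 was detected in 9.80% of high and 2.83% of low nuclei and AT2G41050 in 10.8% and 4.72%. Of 9664 genes with a mean of at least 20 CPM, 38 were higher and 38 lower on all 8 plates (0.393% each and 0.786% together), and the 2 directions were equal in number.

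No difference was detected in transcripts of the factors that process the precursor. Of 49 ribosome biogenesis factors, all tested, 0 passed in either direction, and 0 had an unadjusted p under 0.05 in edgeR, against 2.26% of all genes. Their median log2 difference was -0.04 against 0.09 for all genes, and 22 of the 49 were above 0. Summed, they were at 14022 ± 1377 CPM in high and 14486 ± 2946 CPM in low nuclei and were higher in high nuclei on 3 plates. NOP56 (AT1G56110), a core protein of box C/D snoRNPs and the most abundant of the list, was at 768 to 2670 CPM in high nuclei (median 2046) and 1038 to 4889 CPM in low nuclei (median 2632), with a log2 difference of -0.35 ± 0.20 (SE, edgeR, adjusted p = 1.0). Its partner NOP58 (AT5G27120) was at 938 ± 284 and 1108 ± 591 CPM, and the second copy AT3G05060 at 970 ± 508 and 843 ± 226 CPM. CBF5 (AT3G57150), the pseudouridine synthase of H/ACA snoRNPs, was at 1061 ± 410 and 1242 ± 536 CPM, RRP5 (AT3G11964) at 758 ± 276 and 768 ± 516 CPM, and NOP14 (AT1G69070) at 499 ± 273 and 762 ± 640 CPM, both of them proteins of the small subunit processome. Differences of these 6 within a plate spread by SDs of 0.52 to 2.05 on the log2 scale, so that only large changes could have been seen. The 1 member with the same direction on all plates was NOP2A, also called OLI2, an rRNA methyltransferase of the large subunit path, named here after its values were seen. It was at 375 ± 150 CPM in high and 588 ± 229 CPM in low nuclei, lower on 8 plates (log2 difference -0.68 ± 0.49, adjusted p = 1.0, edgeR). It was 1 of the 38 genes lower on every plate, 0.393% of those at 20 CPM or more. The nucleolin NUC1 and the fibrillarins FIB1 and FIB2, named for their known part in the nucleolus, were at 540 ± 242 and 594 ± 482 CPM, 310 ± 259 and 304 ± 200 CPM, and 221 ± 133 and 257 ± 159 CPM in high and low nuclei.

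**Figure D4:**
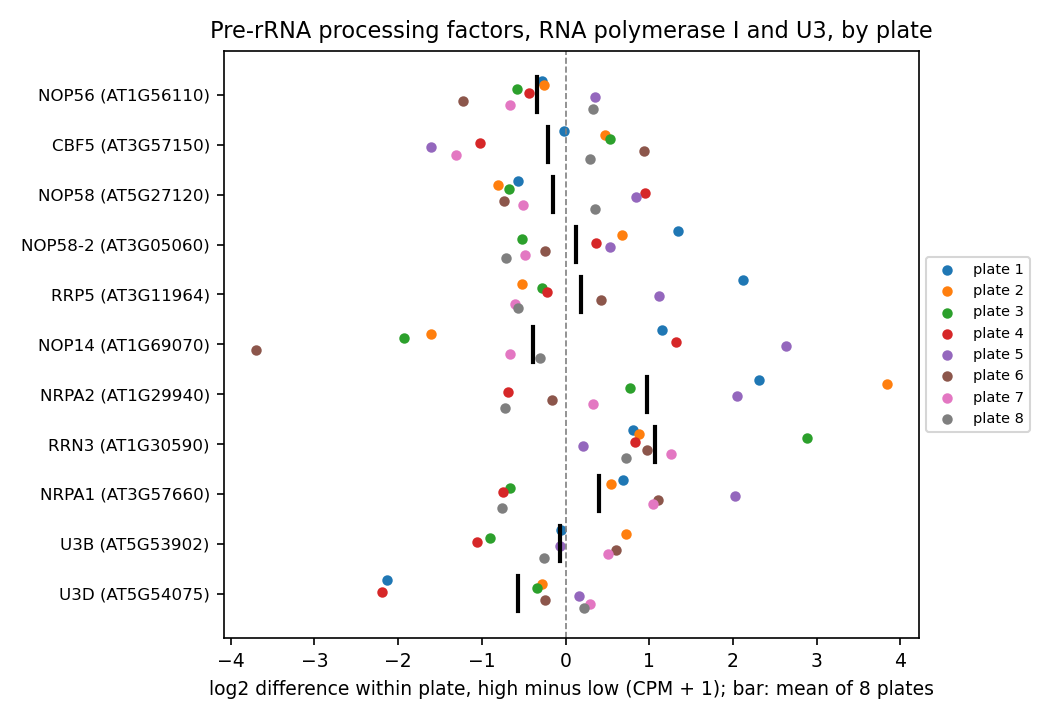
Within-plate log2 difference (horizontal axis, high minus low, CPM + 1) of 6 processing factors, 3 RNA polymerase I genes and 2 U3 snoRNAs, 1 dot per plate and a bar at the mean of 8 plates. RRN3 lies above 0 on every plate and the other genes on both sides of 0.

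The genes of RNA polymerase I had means of 55.2 to 261 CPM, above the median gene at 25.7 CPM. None of the 6 passed, against 0.0535% of all genes, and none had an unadjusted p under 0.05 in edgeR. Their median log2 difference was 0.64. Their summed level was 1120 ± 271 CPM in high and 759 ± 242 CPM in low nuclei, higher on 7 plates. RRN3 (AT1G30590), the factor that brings the polymerase to the rDNA promoter, was at 311, 511, 386, 272, 199, 185, 277 and 464 CPM in high nuclei of plates 1 to 8. In low nuclei it was at 177, 277, 51.5, 153, 172, 93.9, 115 and 281 CPM. It was higher in high nuclei on 8 plates, by 0.21 to 2.88 on the log2 scale, but its log2 difference of 1.05 ± 0.72 did not pass (SE, edgeR, unadjusted p = 0.14, adjusted p = 1.0), and it was 1 of the 38 genes higher on every plate. The largest subunits NRPA1 and NRPA2 were at 263 ± 134 and 204 ± 157 CPM and at 337 ± 241 and 185 ± 94.3 CPM, each higher on 5 plates. The smaller subunits were at lower means in high nuclei, with RPAC42 (AT1G60850) at 44.6 ± 79.3 and 131 ± 160 CPM and RPAC43 (AT1G60620) at 44.7 ± 78.6 and 65.6 ± 56.0 CPM. The RRN3 copy AT2G34750 was at 72.2 ± 82.4 and 46.9 ± 39.4 CPM.

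Of 287 annotated snoRNA genes, 7 had enough counts to be tested. None passed, against 0.0535% of all genes, and the 7 had a median log2 difference of -0.55. U3 snoRNA guides the first cuts of the precursor. Its gene U3B (AT5G53902) was at 82.4 ± 38.4 CPM in high and 91.6 ± 55.7 CPM in low nuclei and U3D (AT5G54075) at 69.4 ± 43.3 and 98.1 ± 71.7 CPM. The other 4 named by level were AT1G06467 with 56.7 ± 77.9 and 29.0 ± 34.8 CPM, AT5G02575 with 7.92 ± 7.43 and 14.6 ± 18.6 CPM, AT3G08485 with 10.5 ± 19.2 and 11.5 ± 17.9 CPM, and AT2G08760 with 1.47 ± 1.40 and 13.4 ± 20.4 CPM, the last lower on 7 plates. AT1G06467 and AT3G08485 were at 0 on both sides of plates 1, 2, 7 and 8, and their means come from plates 3 to 6.

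Enzymes that trim and degrade spacer RNA gave no call either. Of 15 tested, 0 passed, against 0.0535% of all genes, and 0 had an unadjusted p under 0.05 in edgeR. So short a list was unlikely to hold a call at that share. The median log2 difference was 0.05. XRN2, a nuclear exonuclease of pre-rRNA ends, was at 426 ± 225 CPM in high and 384 ± 254 CPM in low nuclei, and its relative XRN3 at 137 ± 96.4 and 44.9 ± 35.1 CPM, higher on 6 plates. MTR4, the helicase of the nucleolar exosome, was at 113 ± 126 and 130 ± 129 CPM. RRP41, an exosome core subunit, was at 82.2 ± 48.9 and 100.1 ± 80.3 CPM, RRP6L2 (AT5G35910), an exosome nuclease, at 176 ± 105 and 199.8 ± 130 CPM, and TRL (AT5G53770), a poly(A) polymerase of spacer fragments, at 117 ± 94.4 and 100.2 ± 81.3 CPM.

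Ribosomal protein transcripts had a median difference above that of all genes in the main fit, the only one in which it was taken, without a single call. The list held 323 genes whose annotated product names a ribosomal protein and no organelle. It was made from these words alone, so proteins of organelles may be among them. Of the 323, 299 could be tested, 0 passed and 199 were above 0. An unadjusted p under 0.05 in edgeR was found for 5, all higher, which is 1.67% of those tested against 2.26% of all genes. Their median log2 difference was 0.30 against 0.09 for all genes. The summed level was 69250 ± 15486 CPM in high and 58611 ± 13551 CPM in low nuclei, higher in high nuclei on 6 plates, and ranged from 45754 to 98837 and from 43834 to 84706 CPM, so that the ranges overlapped almost wholly. Of the 6 most abundant, 4 had fitted differences above 0 and 2 below. AT4G17390 was at 1575 ± 409 and 1225 ± 401 CPM, AT5G27850 at 1036 ± 318 and 812 ± 389 CPM, AT3G60245 at 1259 ± 429 and 1134 ± 546 CPM and AT4G34670, with a fitted difference of 0.12, at 1044 ± 292 and 1047 ± 576 CPM. AT5G20290 was at 972 ± 185 and 1259 ± 557 CPM and AT2G27710 at 814 ± 283 and 1047 ± 240 CPM. Most ribosomal proteins have near-identical gene copies, among which the counting may have split reads.

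Chromatin genes also had medians above that of all genes in the main fit, the only fit in which list medians were taken. High nuclei had deeper libraries in it, and the median of all genes itself shifted by 0.37 or -0.38 in other divisions. Of 14 genes of rDNA chromatin and silencing, 0 passed, against 0.0535% of all genes. Of these 14, 1 had an unadjusted p under 0.05 in edgeR (7.14%, against 2.26% of all genes). In this list 12 were above 0 and the median log2 difference was 0.80, with 2529 ± 600 CPM in high and 1787 ± 394 CPM in low nuclei. HDT3, also called HD2C, a plant histone deacetylase of the nucleolus, was at 304 ± 73.3 and 129 ± 121 CPM, higher on 7 plates (log2 difference 1.88 ± 0.86, unadjusted p = 0.028, adjusted p = 1.0, edgeR), and its relative HDT1 at 373 ± 190 and 177 ± 92.6 CPM. MET1, the maintenance DNA methyltransferase, was at 339 ± 136 and 353 ± 167 CPM. Of 48 histone genes 40 were tested and 0 passed, 32 were above 0 and the median was 0.86. An unadjusted p under 0.05 in edgeR was found for 3, all higher (7.5%, against 2.26% of all genes). The summed level of the 48 was 5526 ± 2213 CPM in high and 3715 ± 1010 CPM in low nuclei. The ranges of 3267 to 8810 and 2188 to 5468 CPM overlapped.

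Genes of the cell cycle, of the TOR growth pathway and of stress showed no call, where 0.0535% of all genes passed. At an unadjusted p under 0.05 in edgeR, 0 replication and 0 TOR genes were found. So were 1 mitotic gene (4.76%) and 1 stress gene (8.33%), against 2.26% of all genes. The 13 DNA replication genes had a median log2 difference of 0.42, and the 21 genes of mitosis and cytokinesis, which do not include 3xHMG-box2, had one of 0.21 with 13 above 0. The mitotic sum was 2062 ± 1227 CPM in high and 2153 ± 1000 CPM in low nuclei. BUBR1, a spindle checkpoint protein, had the lowest p of the list at 33.3 ± 67.1 and 76.6 ± 71.7 CPM (unadjusted p = 0.037, adjusted p = 1.0, edgeR). The 6 TOR pathway genes had a median of -0.09, and the 12 stress genes one of -0.27. HSP90.1, an inducible chaperone, was at 216 ± 259 and 721 ± 1432 CPM (unadjusted p = 0.014, adjusted p = 1.0, edgeR), lower on 6 plates.

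The nuclei of each plate were also ordered by pre-rRNA share and placed in 4 rank groups of about equal size. From the lowest to the highest group these held 56, 53, 50 and 49 nuclei with median shares of 1.24%, 9.34%, 16.9% and 26.2% (means over plates), and median depths without rRNA features of 215926, 311877, 398311 and 304450 counts. Both genes with runs given here had their highest mean in the lowest group. AT3G52700 was at 34227, 10338, 12039 and 16549 CPM from the lowest to the highest group, and SHP1 at 6280, 1529, 1552 and 2004 CPM, with SDs over plates about as large as the means. 3xHMG-box2 was at 2072, 1776, 688 and 1153 CPM, with SDs of 1865, 1046, 693 and 790 CPM. Its means were higher in both lower groups, within a wide spread, and lowest in the third. NOP56 was at 2419, 2338, 2078 and 1869 CPM, with SDs of 1333, 658, 641 and 738 CPM. RRN3 was at 143, 186, 381 and 230.5 CPM, with SDs of 185, 79.7, 226 and 190 CPM. Its mean was highest in the third group, which was also the deepest.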

How the data were processed

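Smart-seq2 libraries of 744 nuclei on 8 plates of 93 were used. The authors trimmed the reads with cutadapt 2.6, quantified transcripts of TAIR10 with kallisto and deposited, per plate, the estimated counts of each gene and nucleus as whole numbers without normalization. Strand was not kept, so overlapping genes cannot be told apart. Nuclear features (32222) were matched by locus to the TAIR10.1 annotation, from which products, runs and sequences were read (RefSeq). Counts without the 11 rRNA features were summed per plate and side and tested with edgeR 4.0.16 (filterByExpr, TMM, quasi-likelihood, plate as block, two-sided, Benjamini-Hochberg) in R 4.3.3. Standard errors were derived from log2 difference and F statistic. Both sides of a plate share its preparation, which is why plate was the block. Their deviations correlated by only -0.01 to 0.04 over 9664 genes. CPM levels are per 1000000 counts without rRNA features, and within-plate differences used CPM + 1. Other fits used DESeq2 1.42.0, limma 3.58.1 (CPM averaged over nuclei), other scalings, filters, divisions and nuclei, and leaving out each plate. A robust edgeR fit, the sign-flip test per gene, leaving out genes with runs and using only plates with a median share over 10% were added after seeing the data. Self-tests used simulated counts. The members and gene lists were chosen with earlier results of these data known. Genes named are those past the threshold, and, in each direction where fewer than 5 genes at 20 CPM with 1 direction on 7 plates passed, the 5 with the smallest p, the 6 most abundant of each ribosome list and all rRNA features. No doublet caller was run on nuclei sorted 1 to a well. Reads lack molecular identifiers, so intervals cover counting error only.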

Additional observations from a re-analysis of the deposited data

Results flagged for a closer look

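Among 49 sets of 8 within-plate differences, 4 had 1 plate far from the rest, where chance gives about 1 in 20. For RRN3 (AT1G30590), plate 3 stood at 2.88 on the log2 scale and the other plates at 0.21 to 1.26. For the ribosomal protein gene AT4G17390, plate 1 stood at 1.92 and the others at -0.38 to 0.67. For RRP6L2 (AT5G35910), plate 4 stood at -7.51 and the others at -1.15 to 2.37. For the share of mitochondrial counts, plate 6 stood at -23.1 percentage points (high minus low) and the others at -7.04 to 1.29.

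The transcript of the sorting transgene, sGFP, was not part of any comparison and had 9540 counts in the 208 nuclei. It was detected in 20 of 102 high nuclei (19.6%, exact 95% interval 12.4% to 28.6%) and 23 of 106 low nuclei (21.7%, 14.3% to 30.8%). These intervals pool nuclei over plates and take the single nucleus as the unit. They leave out the spread between plates, so they cannot be used to compare the sides.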

How the results depend on the processing

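Without the replicate block, edgeR called 0 genes lower and 0 higher. DESeq2 called 494 higher and 411 lower, none of them among the 9. The sign-flip test per gene, which could hardly call any gene with 8 plates, called 0 lower. Stricter limits on nuclei left 2 genes lower, both among the 9, and leaving out genes with runs left 1 lower and 1 higher. Total-count scaling, division separately above and below the median of detected genes and the plates with high shares each gave 1 gene higher. In each of these, and without plate 3 or plate 8, the gene called higher was AT2G16586 (main log2 difference 0.64 ± 0.16, adjusted p = 0.090, edgeR, higher on 6 plates). Leaving out 1 plate at a time gave 0 to 1 genes higher and 7 to 10 lower. The log2 difference of 3xHMG-box2 ranged from -1.44 to -0.29 over 25 alternatives and stayed past the threshold in 14. The alternatives are not independent. Those without 1 plate share the other plates, and leaving rRNA features out of the denominator of the share gave the same values as the main fit. The median of all genes shifted from 0.09 by 0.37 between the nuclei of highest and lowest share, without those in the middle, and by -0.38 when divided separately above and below the median depth. The depth difference was 67143 counts with means over nuclei (adjusted p = 0.16) and 18127 with stricter limits (adjusted p = 0.80), both by the exact sign-flip test. The chloroplast difference turned from 0.14 to -0.48 percentage points with means. No called gene changed its sign in any alternative. The causes of these changes were not tested.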

Other observations

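Of 9664 genes with a mean of at least 20 CPM, 38 were lower on all 8 plates (0.393%), and as many were higher. None of them but 3xHMG-box2 passed the threshold. The genes named here were picked after their values were seen and not by rank of p, so they show no shared theme of the 38. Among those lower were AT5G55660, a DEK chromatin protein (mean 1116 CPM, log2 difference -1.12 ± 0.32, SE), and AT2G28240, a helicase family protein (107 CPM, -7.27 ± 2.08). Others were LCR68, a cysteine-rich peptide (72.9 CPM, -6.29 ± 1.93), AT3G20150, a kinesin (193 CPM, -2.75 ± 0.94), WYR, an inner centromere protein (341 CPM, -1.21 ± 0.62), and BAM5, a beta-amylase (481 CPM, -1.39 ± 0.53). Among the 38 genes higher on all plates were HMGA, an AT-hook chromatin protein (94.0 CPM, 4.16 ± 1.58), the ribosomal protein gene AT4G00810 (145 CPM, 3.41 ± 1.20) and NRPB2, the second subunit of RNA polymerase II (109 CPM, 3.13 ± 1.35). All genes named here, apart from 3xHMG-box2, had unadjusted edgeR p-values from 4.1e-04 to 0.050.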
